A study of Homo sapiens with 9 samples.

Results

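The genes described here are 3 cell surface receptor genes, NTSR1, SUCNR1 and CHRNA9, and 3 genes for enzymes that make, remove or relay second messengers, PDE3A, PLCH2 and RASGRP3. They are 6 of the 60676 genes in the count table and were chosen by their measured values: each was selected on a large change with a LITATS1 hairpin in these same libraries, with no numerical threshold stated. Their levels and fold changes are therefore a description and carry no test, and all 6 passed the filter on low counts that left 15500 genes for testing. The cells were A549, a human lung adenocarcinoma line grown in 10% fetal bovine serum. LITATS1 is a long noncoding RNA, and it was knocked down with short hairpin RNAs that were delivered by lentivirus. All 3 groups carried a lentiviral construct, were kept for 2 days after transduction, received puromycin at 1 ng/mL and were taken after another 3 days. The control group, shNT, carried a hairpin that is not directed at LITATS1, and the groups shLITATS1-1 and shLITATS1-2 each carried a different hairpin against it. Each group had 3 libraries, 9 in all, from selected cell populations of a single line, and since no label states that replicates were transduced separately, the p-values reflect only the spread among these libraries, which may be technical.

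NTSR1 is the high-affinity receptor for the peptide neurotensin and couples mainly to Gq, which activates phospholipase C. SUCNR1 is the receptor for extracellular succinate, an intermediate of the citric acid cycle, and CHRNA9 is a subunit of a calcium-permeable nicotinic acetylcholine receptor that can form alone or with CHRNA10. Phospholipase C enzymes such as PLCH2 split a membrane phosphoinositide into inositol trisphosphate, which releases calcium, and diacylglycerol, which recruits RASGRP3, an exchange factor that loads Ras and Rap with GTP. PDE3A hydrolyses cyclic AMP and is inhibited by cyclic GMP, and so limits signals from receptors that couple to Gs.

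Gene fragments numbered 19610514 to 19989652 per library. LITATS1 itself averaged 15.1 ± 1.51 CPM (gene fragments scaled to library size with TMM factors; SD, n = 3) in the control group, 3.33 ± 0.405 under shLITATS1-1 and 3.02 ± 0.321 under shLITATS1-2. The A549 epithelial markers EPCAM, KRT8, KRT18, KRT7, KRT19 and CDH1 were all detected. Their summed level was 5520 to 5800 CPM with shNT, 9050 to 9230 with shLITATS1-1 and 5210 to 5530 with shLITATS1-2. Most of it was KRT8, at 3040, 5240 and 2760 CPM on average in that order, KRT7 (1360, 1590 and 1500) and KRT18 (1150, 2180 and 962). KRT19 averaged 81.1, 110 and 162 CPM, CDH1 35.9, 33.8 and 26.1 and EPCAM 4.22, 4.91 and 4.5. The summed level of 4 fibroblast markers stayed between 0.461 and 1.26 CPM and that of 4 endothelial markers between 0.105 and 0.87. Of 4 immune markers CD3E was at 0, and the sum, nearly all CD14, was 1.23 to 1.64, 1.89 to 3.06 and 5.05 to 6.09 CPM in the order shNT, shLITATS1-1, shLITATS1-2. Of 6 neuronal and neuroendocrine markers ELAVL4 and STMN2 were at 0, and the sum, mostly SNAP25, was 69.6 to 72.0, 98.3 to 100.0 and 53.2 to 57.4 CPM. Unaligned fragments made up 3.79%, 5.56% and 5.43% of the libraries on average, and mitochondrial genes took 12.2%, 10.2% and 7.97% of gene fragments. The part of these shifts in the values below was not tested.

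The 3 receptor genes have an annotated RefSeq start within 4 bases of their GENCODE start, so the 250 bases before it are shown for them. All 3 lie on the plus strand of GRCh38.p14, and the windows are chr3:151873393-151873642 for SUCNR1, chr4:40335083-40335332 for CHRNA9 and chr20:62708586-62708835 for NTSR1. They are printed 5′ to 3′ with motif matches in capitals.
SUCNR1: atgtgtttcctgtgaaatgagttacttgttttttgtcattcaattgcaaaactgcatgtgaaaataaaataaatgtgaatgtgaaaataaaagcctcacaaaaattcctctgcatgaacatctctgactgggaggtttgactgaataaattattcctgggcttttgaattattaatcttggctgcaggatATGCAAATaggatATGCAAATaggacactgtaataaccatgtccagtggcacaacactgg
CHRNA9: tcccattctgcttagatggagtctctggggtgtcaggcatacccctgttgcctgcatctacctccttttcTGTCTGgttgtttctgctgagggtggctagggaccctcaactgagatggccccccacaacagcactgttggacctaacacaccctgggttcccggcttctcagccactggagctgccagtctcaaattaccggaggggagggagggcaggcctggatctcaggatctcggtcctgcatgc
NTSR1: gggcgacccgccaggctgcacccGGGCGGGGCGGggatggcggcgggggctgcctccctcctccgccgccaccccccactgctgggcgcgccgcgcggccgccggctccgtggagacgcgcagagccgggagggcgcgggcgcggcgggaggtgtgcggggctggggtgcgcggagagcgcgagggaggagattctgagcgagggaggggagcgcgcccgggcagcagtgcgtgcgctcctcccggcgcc
The capitals mark, on either strand, matches to 6 motifs: TGANTCA (AP-1), CAGACA (SMAD-type), GGAATG (TEAD), ATGCAAAT (octamer), TGACGTCA (cyclic AMP response element) and GGGCGG (GC box). The octamer was added after the SUCNR1 sequence was read, and it was the motif found there, with matches 60 to 53 and 47 to 40 bases before the start. The CHRNA9 window held CAGACA on the minus strand, printed as its reverse complement on the plus strand, 180 to 175 bases before the start. In the NTSR1 window a pair of GC boxes shared 1 base, at 227 to 222 and 222 to 217. Of 35116 RefSeq windows of the same length, 1.63% held the octamer, 13.6% CAGACA and 42.6% the GC box, beside 6.57% for TGANTCA, 11.9% for GGAATG and 1.65% for TGACGTCA. The windows also differed in base composition: G and C made up 35.2% of the SUCNR1 window, 58.0% of the CHRNA9 window and 82.0% of the NTSR1 window, against a median of 58.0% over all windows. SUCNR1 and CHRNA9, the pair of the 6 genes with the most alike changes from shNT over the 9 libraries, held none of these motifs in common.

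The 6 genes differed in how their levels changed over the 3 groups. NTSR1 was somewhat higher with shLITATS1-1 and far higher with shLITATS1-2, SUCNR1 and CHRNA9 were higher with both hairpins by similar amounts, PLCH2 was higher with shLITATS1-2, and RASGRP3 was higher with shLITATS1-1. PDE3A was higher with shLITATS1-1 and lower with shLITATS1-2. Since these are bulk samples, fewer cells that make a transcript and less of it per cell cannot be told apart.

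**Figure D1:**
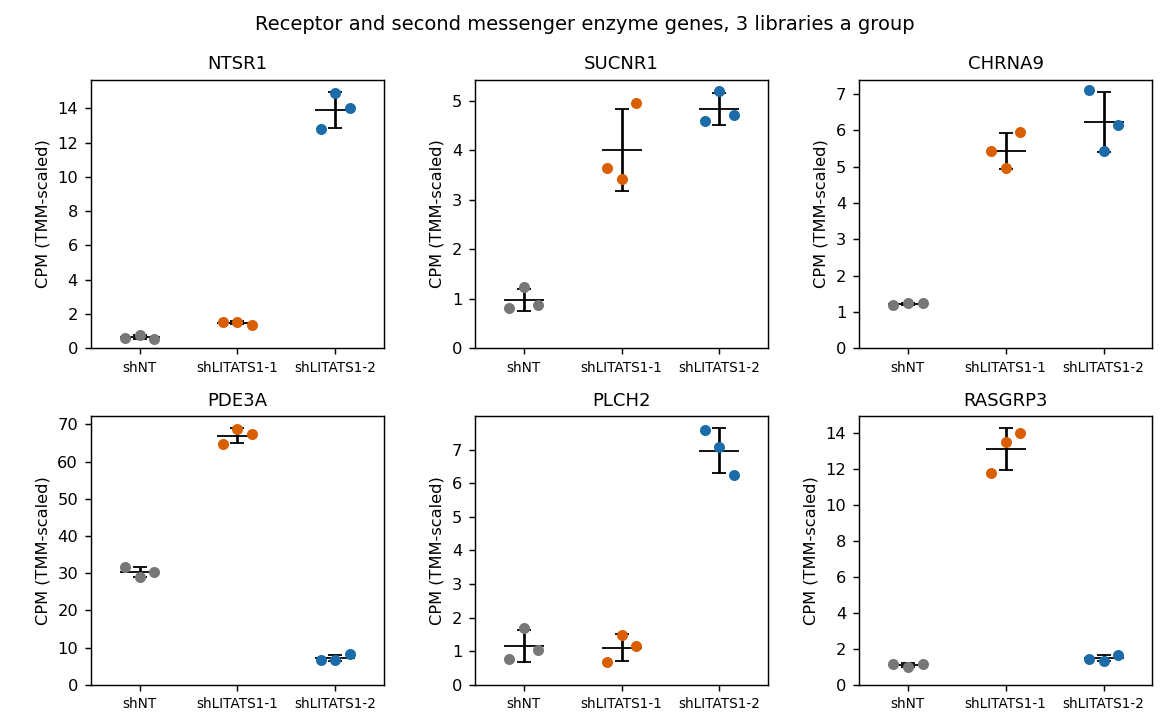
Level of each gene in CPM (vertical axis, from 0) in the 3 libraries of each group (points); lines and bars give the mean and SD. NTSR1 and PLCH2 stand high in the shLITATS1-2 libraries, RASGRP3 in the shLITATS1-1 libraries, SUCNR1 and CHRNA9 with both hairpins, and PDE3A moves in opposite directions.

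With shLITATS1-1, 5 of the 6 genes had libraries wholly apart from the shNT libraries, and with shLITATS1-2 all 6 did. Between the hairpins 4 of 6 were apart. Over all 15500 tested genes the libraries were apart for 64.2%, 59.6% and 64.2% in the same 3 comparisons, and edgeR's quasi-likelihood test called 61.0% between shLITATS1-1 and shNT, 56.7% between shLITATS1-2 and shNT and 60.9% between the hairpins. Since the genes were selected on these contrasts, nothing is read from their counts against those shares. By length-scaled level (FPKM, CPM per kilobase of union exon length), the order with shNT was PDE3A at 3.61 ± 0.176 (SD, n = 3), CHRNA9 at 0.383 ± 0.00958, SUCNR1 at 0.233 ± 0.0531, NTSR1 at 0.149 ± 0.0302, PLCH2 at 0.108 ± 0.044 and RASGRP3 at 0.0984 ± 0.00969. In that order PLCH2 did not differ from its neighbours NTSR1 and RASGRP3 beyond their SDs. PDE3A stood at the 49.2 percentile of tested genes with shNT, and the other 5 genes stood between 3.18 and 14.1. With shLITATS1-1 the order became PDE3A (7.97 ± 0.24 FPKM), CHRNA9 (1.72 ± 0.158), RASGRP3 (1.18 ± 0.103), SUCNR1 (0.957 ± 0.198), NTSR1 (0.348 ± 0.0214) and PLCH2 (0.103 ± 0.037), with RASGRP3 and SUCNR1 within their SDs of each other. With shLITATS1-2 it became NTSR1 (3.29 ± 0.245 FPKM), CHRNA9 (1.97 ± 0.263), SUCNR1 (1.16 ± 0.0773), PDE3A (0.864 ± 0.104), PLCH2 (0.647 ± 0.0626) and RASGRP3 (0.134 ± 0.0154). NTSR1 thus moved from the fourth place to the first with shLITATS1-2, and PDE3A from the first to the fourth.

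NTSR1 (ENSG00000101188, GRCh38 chr20:62708837-62762771, plus strand) was counted at 12, 15 and 10 fragments in the shNT libraries, which is 0.615, 0.768 and 0.514 CPM. Its level was 1.53, 1.53 and 1.37 CPM with shLITATS1-1 and 12.8, 14.9 and 14 CPM with shLITATS1-2. The 3 groups did not overlap, and the shLITATS1-2 libraries stood far above both others. The log2 fold change from shNT was 1.21 (SE 0.27) with shLITATS1-1 and 4.45 (SE 0.161) with shLITATS1-2, a 22-fold ratio of mean CPM, and 2 of the 15500 tested genes had a larger absolute log2 fold change with shLITATS1-2. Between the hairpins the log2 difference was 3.23 (SE 0.136). The low shNT counts set the width of the shNT comparisons: single-library ratios ran from 16.7 to 29 for shLITATS1-2.

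The ligand gene of NTSR1 was also expressed. NTS, which encodes the neurotensin precursor, stood at 26.8, 24.1 and 27.6 CPM with shNT, at 77.3, 75.3 and 75.5 with shLITATS1-1 and at 10.4, 9.73 and 10.8 with shLITATS1-2. NTS rose with shLITATS1-1 (log2 fold change 1.54, SE 0.0521, edgeR Benjamini-Hochberg adjusted p = 2.47e-38) and fell with shLITATS1-2 (-1.34, SE 0.0719, edgeR adjusted p = 8.82e-27). The ligand was thus highest in the group in which NTSR1 was intermediate and lowest in the group in which NTSR1 was highest. Per length, NTS averaged 16.8 ± 1.19 FPKM (SD, n = 3) in control cells, 48.9 ± 0.693 under shLITATS1-1 and 6.64 ± 0.355 under shLITATS1-2, above NTSR1 in each group. SORL1, a sorting receptor that also binds neurotensin, was at 12.2, 11.6 and 11.1 CPM with shNT, 9.36, 11.9 and 11.3 with shLITATS1-1 and 32.2, 28.8 and 31.9 with shLITATS1-2. It rose with shLITATS1-2 (log2 fold change 1.41, SE 0.0726, edgeR adjusted p = 8.92e-28) and did not pass with shLITATS1-1 (-0.10, SE 0.0895, edgeR adjusted p = 0.321). SORT1, the sortilin sorting receptor, rose by 0.18 (SE 0.0554) on the log2 scale with shLITATS1-1 and stood at 0.06 (SE 0.0554) with shLITATS1-2, which did not pass. NTSR2, the other G protein-coupled neurotensin receptor, was below the filter and averaged at most 0.0109 FPKM in any group. Of the 3 tested genes of the neurotensin list without NTSR1, 2 rose and none fell with shLITATS1-1, by DESeq2 and at an unadjusted p under 0.05 too (30.5% of all tested genes rose and 30.5% fell), and 1 rose and 1 fell with shLITATS1-2 (27.8% rose and 28.9% fell over all genes).

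**Figure D2:**
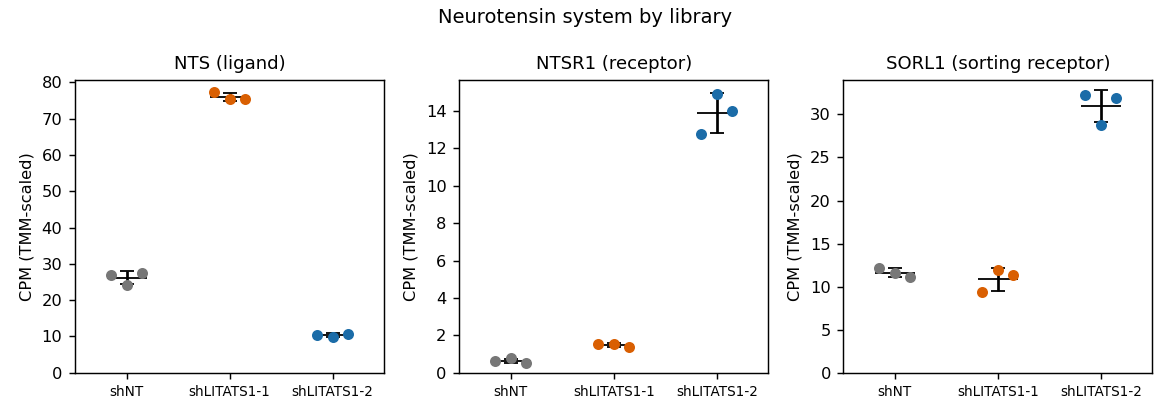
Level in CPM (vertical axes, from 0, with different scales) of NTS, NTSR1 and SORL1 in the 3 libraries of each group (points), with mean and SD. NTS is highest with shLITATS1-1 at 75.3 to 77.3 CPM and lowest with shLITATS1-2, where NTSR1 and SORL1 are highest.

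SUCNR1 (ENSG00000198829, chr3:151873643-151884619, plus strand) was at 0.82, 1.23 and 0.873 CPM with shNT, 3.63, 3.42 and 4.95 with shLITATS1-1 and 4.59, 5.2 and 4.71 with shLITATS1-2. Each hairpin's libraries lay above every shNT library, and the hairpin groups overlapped each other. The log2 fold change was 2.03 (SE 0.204) with shLITATS1-1 and 2.30 (SE 0.193) with shLITATS1-2, and the log2 difference between the hairpins was 0.27 (SE 0.142). Genes that make, use or carry its ligand, succinate, were followed as a list. Of 13 tested genes of that list, 2 rose and 6 fell with shLITATS1-1, and none rose and 6 fell with shLITATS1-2 (none rose at an unadjusted p under 0.05 or by DESeq2 either), with median log2 fold changes of -0.20 with each, beside -0.01 and -0.00399 over all tested genes. Calls made up 61.5% and 46.2% of the list, beside 61.0% and 56.7% over all tested genes. The fallen genes included SLC25A10, the mitochondrial dicarboxylate carrier, at -0.88 (SE 0.118) and -0.69 (SE 0.113), and SUCLA2, a subunit of succinyl-CoA ligase, at -0.26 (SE 0.0445) and -0.46 (SE 0.0448). SDHD, a membrane anchor of succinate dehydrogenase, fell by 0.61 (SE 0.0537) on the log2 scale with shLITATS1-2 and was at -0.08 (SE 0.0514) with shLITATS1-1, which did not pass. With shLITATS1-2 the direction of this list depends on the scaling: with library size alone 5 of the 13 rose and 4 fell. OXGR1, the receptor for the related metabolite oxoglutarate, was below the filter.

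CHRNA9 (ENSG00000174343, chr4:40335329-40355217, plus strand) was at 1.18, 1.23 and 1.23 CPM with shNT, 5.42, 4.95 and 5.95 with shLITATS1-1 and 7.1, 5.44 and 6.15 with shLITATS1-2. All hairpin libraries lay above the shNT libraries, which were within 1 fragment of each other at 23, 24 and 24, and the hairpin groups overlapped. The log2 fold change was 2.16 (SE 0.175) with shLITATS1-1 and 2.35 (SE 0.168) with shLITATS1-2, and the log2 difference between hairpins was 0.20 (SE 0.122). Per length CHRNA9 ranked 3 of 16 nicotinic subunit genes with shNT, behind CHRNA5 at 3.41 ± 0.261 FPKM (SD, n = 3) and CHRNB1 at 1.47 ± 0.102, and 2 of 16, behind CHRNA5, with each hairpin. Its place above CHRNB1 is not resolved beyond their SDs. With shLITATS1-1 CHRNA9 was at 1.72 ± 0.158 and CHRNB1 at 1.44 ± 0.126 FPKM, and with shLITATS1-2 at 1.97 ± 0.263 and 1.75 ± 0.117.

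Of the other 15 nicotinic subunits, 8 were below the filter. Among the 7 tested, 1 rose and 2 fell with shLITATS1-1 (30.5% and 30.5% of all tested genes), and 3 rose and 2 fell with shLITATS1-2 (27.8% and 28.9%). With shLITATS1-2, 3 were higher and 1 lower than with shLITATS1-1 (30.7% and 30.2% of all tested genes). CHRNA10, the partner subunit of CHRNA9, was at 0.82, 1.02 and 0.514 CPM with shNT, 1.89, 1.05 and 1.63 with shLITATS1-1 and 0.676, 0.481 and 0.913 with shLITATS1-2. It rose with shLITATS1-1 (log2 fold change 0.95, SE 0.28, edgeR adjusted p = 0.00244) and stood at -0.19 (SE 0.329) with shLITATS1-2, which did not pass. CHRNB4 rose with shLITATS1-2 (1.45, SE 0.301, edgeR adjusted p = 2.87e-05) and CHRNA5 fell (-0.36, SE 0.0889, edgeR adjusted p = 0.000423). With shLITATS1-1 CHRNB4 was at 0.70 (edgeR adjusted p = 0.0744, not passed) and CHRNA5 fell too (-0.25, edgeR adjusted p = 0.0124). That fall of CHRNA5 is lost with DESeq2 (-0.24, adjusted p = 0.0577) and without shNT replicate 2 (-0.21) or shLITATS1-1 replicate 2 (-0.23). CHRNB2 fell by 1.37 (SE 0.31) on the log2 scale with shLITATS1-1 and rose by 0.68 (SE 0.22) with shLITATS1-2, a call that is lost without shLITATS1-2 replicate 1 (0.49, edgeR adjusted p = 0.0874). Among 8 tested genes for acetylcholine handling and nicotinic accessory proteins, 3 rose and 2 fell with shLITATS1-1 and 2 rose and 2 fell with shLITATS1-2. ACHE and BCHE, which break down acetylcholine, rose with shLITATS1-1 by 1.43 (SE 0.257) and 1.18 (SE 0.176) on the log2 scale, and with shLITATS1-2 they stood at 0.54 (SE 0.29) and 0.04 (SE 0.204), neither of which passed. SLC44A1, a choline transporter, fell with both, by 0.62 (SE 0.0381) and 0.67 (SE 0.0379). RIC3, a chaperone of nicotinic receptors, rose by 0.73 (SE 0.191) with shLITATS1-2 and stood at 0.30 (SE 0.207, not passed) with shLITATS1-1. LYPD1, a membrane-anchored modulator of nicotinic receptors, rose by 0.70 (SE 0.165) with shLITATS1-1 and fell by 1.00 (SE 0.208) with shLITATS1-2. CHRNA7 counts are uncertain, since the gene has a near-identical partial copy.

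PDE3A (ENSG00000172572, chr12:20369245-20684381, plus strand) was at 31.8, 28.9 and 30.3 CPM with shNT, 64.7, 68.7 and 67.5 with shLITATS1-1 and 6.76, 6.74 and 8.27 with shLITATS1-2. The 3 groups did not overlap, with shLITATS1-1 above and shLITATS1-2 below shNT. The log2 fold change was 1.14 (SE 0.0527) with shLITATS1-1 and -2.06 (SE 0.0766) with shLITATS1-2. Mean CPM was 2.21 times that of shNT with the former and 0.239 times with the latter, and shLITATS1-1 libraries held 9.23 times the level of shLITATS1-2 libraries. Its counts were the highest of the 6 genes, at 140 to 1303 fragments per library.

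Among the 24 genes of the phosphodiesterase list PDE3A was ranked 5 by FPKM with shNT and with shLITATS1-1, and 12 with shLITATS1-2. The last rank is not resolved, since PDE6G next to it stood at 0.893 ± 0.292 FPKM. PDE8A (19.6 ± 0.439 FPKM; SD, n = 3) and PDE4D (18.5 ± 1.07), which act on cyclic AMP, were the highest with shNT. The 18 other tested genes of this list include PDE6D and PDE6G, which do not encode catalytic subunits. Of the 18, 6 rose and 3 fell with shLITATS1-1 (30.5% and 30.5% of all tested genes). With shLITATS1-2 none rose and 9 fell (1 was higher at an unadjusted p under 0.05 and none by DESeq2), beside 27.8% and 28.9%. Between the hairpins 2 were higher and 10 lower with shLITATS1-2 (30.7% and 30.2%). PDE6D was among the falls with each hairpin (-0.143 and -0.181), calls that were lost under some alternatives. The median log2 fold changes were 0.01, -0.26 and -0.39, beside -0.01, -0.00399 and 0.01 over all tested genes. With library size alone, a scaling for which the shares above do not hold, the split with shLITATS1-2 was 2 higher and 7 lower.

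PDE4D was at 321, 298 and 287 CPM with shNT, 320, 330 and 325 with shLITATS1-1 and 150, 148 and 158 with shLITATS1-2. It fell with shLITATS1-2 (log2 fold change -0.99, SE 0.0342, edgeR adjusted p = 1.54e-36), and with shLITATS1-1 its rise of 0.11 (SE 0.0327) is lost without shNT replicate 3 (0.07, edgeR adjusted p = 0.0796). PDE4B, of the same cyclic AMP-specific subfamily, rose by 0.20 (SE 0.0442) and fell by 0.30 (SE 0.0458) on the log2 scale with shLITATS1-1 and shLITATS1-2, the same directions as the values of PDE3A. PDE3B, the closest relative of PDE3A, fell by 0.43 (SE 0.0974) with shLITATS1-2 and stood at -0.06 (SE 0.0943) with shLITATS1-1, which did not pass. PDE11A (1.86, SE 0.249), PDE7B (0.96, SE 0.0694), PDE5A (0.84, SE 0.185) and PDE1C (0.62, SE 0.054) rose with shLITATS1-1. PDE7A went against them, at -0.87 (SE 0.0743) with shLITATS1-1 and 0.05 (SE 0.0649, not passed) with shLITATS1-2.

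**Figure D3:**
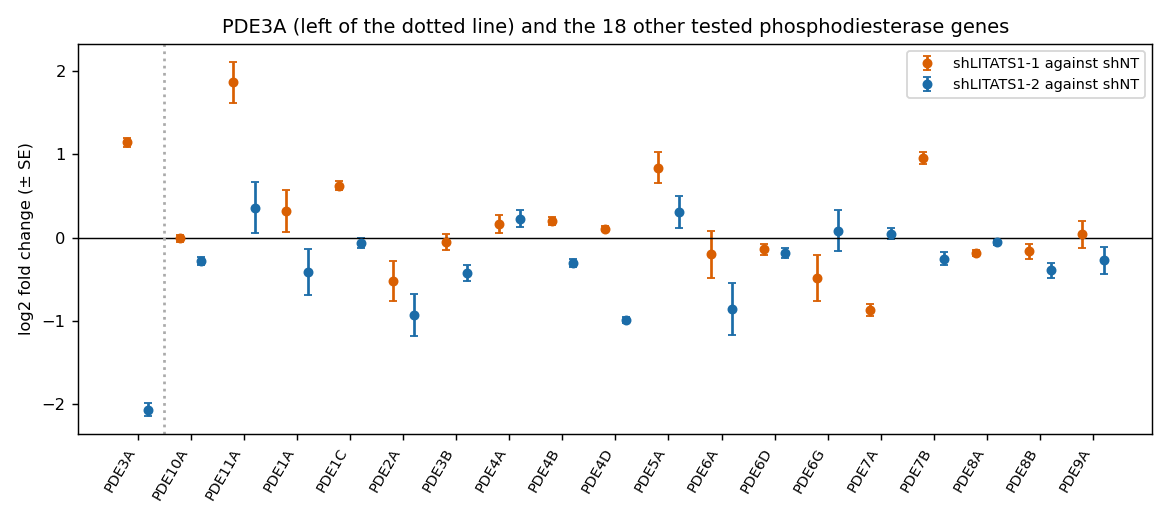
Log2 fold change from shNT with SE (vertical axis) of PDE3A and 18 other tested phosphodiesterase genes with shLITATS1-1 (orange) and shLITATS1-2 (blue), from 3 libraries a group. PDE3A has 1.14 and -2.06, and PDE4D -0.99 with shLITATS1-2.

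Genes that make cyclic AMP or respond to it were split. Over all tested genes 30.5% rose and 30.5% fell with shLITATS1-1, and 27.8% rose and 28.9% fell with shLITATS1-2. These shares apply to both lists of this paragraph, but not to the splits with library size alone. Of 30 tested genes for cyclic AMP synthesis and effectors, 10 rose and 6 fell with shLITATS1-1, and 6 rose and 12 fell with shLITATS1-2, a split that turned to 10 and 6 with library size alone. PRKACB, a catalytic subunit of protein kinase A, rose by 0.36 (SE 0.0499) with shLITATS1-1 and fell by 0.79 (SE 0.0554) with shLITATS1-2 on the log2 scale. PRKAR2A, a regulatory subunit, rose with both, by 0.78 (SE 0.0401) and 0.66 (SE 0.0401). PKIA, an inhibitor of protein kinase A, rose by 1.42 (SE 0.396) with shLITATS1-1 and was at -0.01 (SE 0.49, not passed) with shLITATS1-2. RAPGEF4, an exchange factor activated by cyclic AMP, rose by 0.96 (SE 0.396) with shLITATS1-1, a call that is lost with DESeq2 (0.98, adjusted p = 0.118), with no filter (0.95) and without shNT replicate 1 (0.60), shNT replicate 2 (0.83), shLITATS1-1 replicate 1 (0.80) or shLITATS1-1 replicate 2 (0.91), and was at -0.63 (SE 0.503, not passed) with shLITATS1-2. GNAL, a stimulatory G protein subunit, fell with both, to -0.92 (SE 0.111) and -1.30 (SE 0.115). Of 15 tested target genes of the cyclic AMP-responsive factor CREB, 5 rose and 4 fell with shLITATS1-1, and 3 rose and 8 fell with shLITATS1-2 (4 and 6 with library size alone). AREG, a growth factor of the EGF family, fell by 1.23 (SE 0.0548) and PPARGC1A, a coactivator of mitochondrial genes, by 1.15 (SE 0.162) on the log2 scale with shLITATS1-2. JUNB, an AP-1 subunit, rose with both, by 1.23 (SE 0.0416) and 0.93 (SE 0.0421), as did the neurotrophin gene BDNF, by 0.73 (SE 0.0552) and 0.31 (SE 0.057). FOSB, another AP-1 subunit, rose by 0.91 (SE 0.352) with shLITATS1-1, lost with DESeq2 (0.93, adjusted p = 0.0795) and without shNT replicate 3 (0.71) or shLITATS1-1 replicate 1 (0.87), and was at 0.29 (SE 0.381, not passed) with shLITATS1-2.

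PLCH2 (ENSG00000149527, chr1:2425980-2505530, plus strand) was at 0.769, 1.69 and 1.03 CPM with shNT, 0.684, 1.48 and 1.16 with shLITATS1-1 and 7.58, 7.08 and 6.25 with shLITATS1-2. The shNT and shLITATS1-1 libraries overlapped, and each shLITATS1-2 library lay above all of them. The log2 fold change was -0.07 (SE 0.275) with shLITATS1-1 and 2.58 (SE 0.181) with shLITATS1-2, and the log2 difference between hairpins was 2.65 (SE 0.185). With 13 to 33 fragments per library in the lower groups, the value for shLITATS1-1 ranged from -0.33 to 0.30 over the alternatives run. It was above 0 without shNT replicate 2 (0.30) and without shLITATS1-1 replicate 1 (0.18).

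PLCH1, the closest relative of PLCH2, was at 15.4, 14.4 and 14.4 CPM with shNT, 16.3, 15.9 and 16.3 with shLITATS1-1 and 13.3, 15.1 and 14.3 with shLITATS1-2, and it did not pass the test with either hairpin (0.14, SE 0.0759, edgeR adjusted p = 0.117; -0.05, SE 0.0765, edgeR adjusted p = 0.6). The 12 other tested phospholipase C genes include the catalytically inactive PLCL2. Of the 12, 6 rose and none fell with shLITATS1-1 (1 was lower at an unadjusted p under 0.05 and none by DESeq2), and 7 rose and 1 fell with shLITATS1-2. With library size alone these splits were 6 and 1, and 8 and 1. Among all tested genes 30.5% rose and 30.5% fell with shLITATS1-1, and 27.8% rose and 28.9% fell with shLITATS1-2. These shares hold for TMM scaling and not for library size alone. The median log2 fold changes of the list were 0.16 and 0.28. PLCD3, the phospholipase C gene with the highest FPKM in each group, was at 116, 123 and 118 CPM with shNT, 195, 195 and 186 with shLITATS1-1 and 223, 229 and 213 with shLITATS1-2. It rose by 0.69 (SE 0.0348) and 0.89 (SE 0.0343) on the log2 scale. PLCB4, a Gq-activated isoform, rose by 0.59 (SE 0.0534) and 0.56 (SE 0.0529), and PLCD1 by 0.73 (SE 0.114) and 0.47 (SE 0.116). PLCB2, another isoform activated by G proteins, rose with shLITATS1-2 from at most 0.512 CPM in any shNT library to 0.817 to 1.01 CPM (log2 fold change 1.14, SE 0.34, edgeR adjusted p = 0.00316). PLCH2 ranked 12 of 15 phospholipase C genes by FPKM with shNT and 11 with shLITATS1-2.

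**Figure D4:**
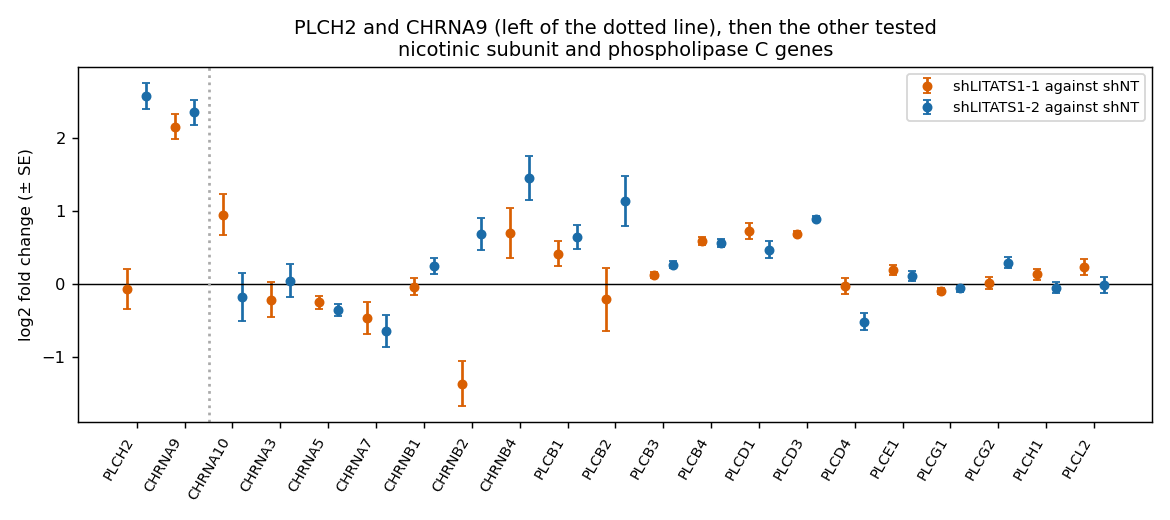
Log2 fold change from shNT with SE (vertical axis) of PLCH2 and CHRNA9 and, right of the dotted line, the 7 other tested nicotinic subunit and 12 other tested phospholipase C genes, with shLITATS1-1 (orange) and shLITATS1-2 (blue), from 3 libraries a group. PLCH2 is near 0 with shLITATS1-1 and at 2.58 with shLITATS1-2.

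Further along the Gq and calcium branch, 17 of 31 tested genes rose and 2 fell with shLITATS1-1, and 16 rose and 7 fell with shLITATS1-2 (20 and 5 with library size alone). The shares of all tested genes were 30.5% and 30.5% with shLITATS1-1 and 27.8% and 28.9% with shLITATS1-2. With library size alone these shares do not apply, since the median change of all genes shifted upward with shLITATS1-2. PPP3CA, a catalytic subunit of the calcium-activated phosphatase calcineurin, rose by 0.94 (SE 0.036) with shLITATS1-1 and 0.37 (SE 0.0369) with shLITATS1-2 on the log2 scale. ATP2A3, a calcium pump of the endoplasmic reticulum, rose by 0.51 (SE 0.0825) and 1.23 (SE 0.0744). INPP5A, which removes a phosphate from inositol trisphosphate, rose by 0.18 (SE 0.0687) with shLITATS1-1 and fell by 1.15 (SE 0.0806) with shLITATS1-2. Its rise is lost with DESeq2 (0.19, adjusted p = 0.0546) and without shNT replicate 1 (0.14) or shLITATS1-1 replicate 1 (0.16). ITPKA, a kinase of inositol trisphosphate, rose by 0.71 (SE 0.195) and 0.85 (SE 0.188), and INPP1, an inositol phosphatase, by 0.58 (SE 0.0723) and 0.28 (SE 0.074). NFATC2, a transcription factor that calcineurin activates, rose by 0.94 (SE 0.12) with shLITATS1-2 and was at 0.09 (SE 0.138, not passed) with shLITATS1-1.

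RASGRP3 (ENSG00000152689, chr2:33436324-33564750, plus strand) was at 1.18, 0.973 and 1.13 CPM with shNT, 11.8, 13.5 and 14 with shLITATS1-1 and 1.45, 1.35 and 1.68 with shLITATS1-2. The shLITATS1-1 libraries stood far above both other groups, and the shLITATS1-2 libraries lay just above the shNT libraries without overlap. The log2 fold change was 3.58 (SE 0.148) with shLITATS1-1, a 12-fold ratio of mean CPM, and 0.45 (SE 0.233) with shLITATS1-2. With shLITATS1-1, 14 tested genes had a larger absolute log2 fold change, whereas with shLITATS1-2 this was so of 4247. Between the hairpins the log2 difference, shLITATS1-2 minus shLITATS1-1, was -3.13 (SE 0.136).

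RASGRP1, the family member with the highest FPKM with shNT, was at 2.92, 2.76 and 2.26 CPM with shNT, 6.68, 6.48 and 6.8 with shLITATS1-1 and 6.09, 5.25 and 5.82 with shLITATS1-2. RASGRP1 rose with both hairpins (log2 fold changes 1.33, SE 0.138, edgeR adjusted p = 2.3e-13, and 1.11, SE 0.14, edgeR adjusted p = 2.3e-10), and the difference between hairpins did not pass (-0.22, SE 0.116, edgeR adjusted p = 0.0974). Per length RASGRP3 reached the level of RASGRP1 with shLITATS1-1, at 1.18 ± 0.103 against 1.09 ± 0.0261 FPKM (SD, n = 3). With shNT RASGRP3 was at 0.0984 ± 0.00969 against 0.434 ± 0.0565. These FPKM values depend on the union exon length, which for RASGRP3 is 11118 bases over 18 annotated transcripts. In CPM RASGRP3 averaged 13.1 with shLITATS1-1, above the 6.48 to 6.8 of RASGRP1. RASGRP2 averaged 0.073 FPKM and RASGRP4 0.0164 with shNT. RASGRP2 was at -0.57 (SE 0.453, not passed) with shLITATS1-1 and rose by 0.93 (SE 0.348) on the log2 scale with shLITATS1-2, a call that is lost with DESeq2 (0.94, adjusted p = 0.093) and without shNT replicate 1 (0.80), shNT replicate 3 (0.87), shLITATS1-2 replicate 1 (0.78) or shLITATS1-2 replicate 3 (0.87).

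Of 20 tested diacylglycerol kinases and effectors, which hold the other RASGRP genes, 6 rose and 6 fell with shLITATS1-1, and 9 rose and 4 fell with shLITATS1-2. Over all tested genes 30.5% rose and 30.5% fell with shLITATS1-1, and 27.8% rose and 28.9% fell with shLITATS1-2. The same shares apply to the Ras, Rap and ERK counts below, except those with library size alone. That scaling shifted the median change of all genes upward with shLITATS1-2. DGKA, a kinase that removes diacylglycerol, rose by 1.12 (SE 0.0654) and 0.92 (SE 0.066) on the log2 scale. Of 38 tested regulators of Ras and Rap, 21 rose and 9 fell with shLITATS1-1, and 17 rose and 7 fell with shLITATS1-2 (24 and 4 with library size alone). RAP1GAP, which switches Rap off, was at 107, 118 and 117 CPM with shNT, 45.3, 45.1 and 48.6 with shLITATS1-1 and 149, 152 and 149 with shLITATS1-2. It fell by 1.30 (SE 0.0427) on the log2 scale in the group with high RASGRP3 and rose by 0.40 (SE 0.0367) with shLITATS1-2. RAP1GAP2, a paralogue, rose by 0.24 (SE 0.0761) and 1.05 (SE 0.0678), and the Ras-related GTPase gene RRAS by 0.43 (SE 0.0443) and 1.11 (SE 0.0417). RASA4, a Ras inactivator whose counts are uncertain because of a near-identical copy, rose by 1.09 (SE 0.399) with shLITATS1-1 and was at 0.44 (SE 0.435, not passed) with shLITATS1-2. Its rise is lost with DESeq2 (1.12, adjusted p = 0.0621) and without shNT replicate 3 (0.93) or shLITATS1-1 replicate 3 (0.81). Among 20 output genes of the ERK pathway, which lies downstream of Ras, 7 rose and 6 fell with shLITATS1-1 (6 and 8 with library size alone), and 10 rose and 2 fell with shLITATS1-2 (14 and 2). SPRY1, a feedback inhibitor of that pathway, fell by 1.15 (SE 0.185) with shLITATS1-1 and was at -0.02 (SE 0.153, not passed) with shLITATS1-2, and SPRED3, another, rose by 1.06 (SE 0.093) and 0.48 (SE 0.0989). SPRY4, a relative of SPRY1, rose by 0.82 (SE 0.0651) with shLITATS1-2 and was at 0.14 (SE 0.0716, not passed) with shLITATS1-1. EPHA4, an ephrin receptor, rose by 2.18 (SE 0.273) and 0.83 (SE 0.332). The latter call is lost with DESeq2 (0.84, adjusted p = 0.0717), with no filter (0.82) and without shNT replicate 2 (0.64), shNT replicate 3 (0.78), shLITATS1-2 replicate 1 (0.76) or shLITATS1-2 replicate 2 (0.84). EMP1, a membrane protein, rose by 0.62 (SE 0.0742) and 1.49 (SE 0.0661).

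Set side by side, the 2 comparisons with shNT share their control libraries, so their likeness is not used as a result, and the direct comparison of the hairpins shows where they differ. NTSR1 (3.23) and PLCH2 (2.65) had the higher level with shLITATS1-2, PDE3A (-3.21) and RASGRP3 (-3.13) the higher with shLITATS1-1, all on the log2 scale. Within these 4 genes the libraries of the 2 hairpins did not overlap. For NTSR1 17, for PDE3A 18, for RASGRP3 22 and for PLCH2 50 of the 15500 tested genes had a larger absolute log2 difference. SUCNR1 (0.27) and CHRNA9 (0.20) overlapped, and 7754 and 9526 genes differed by more.

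**Figure D5:**
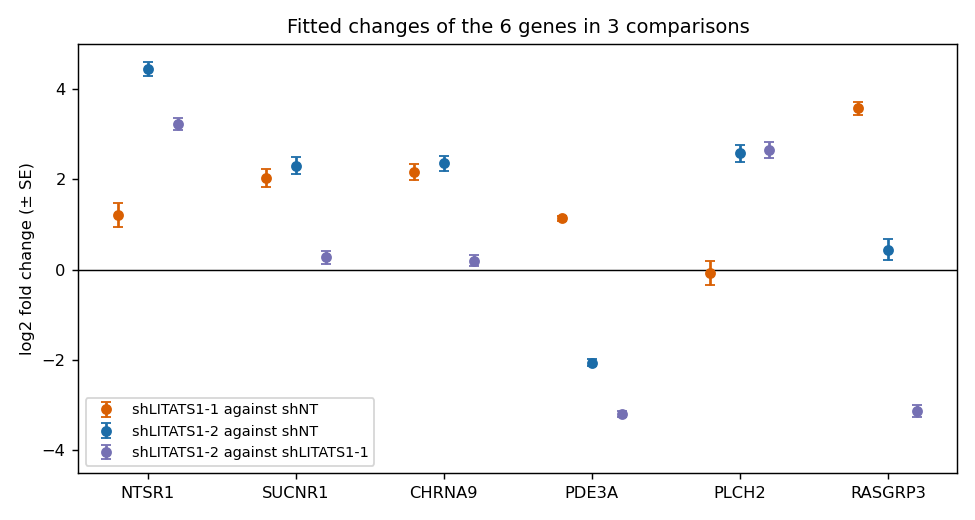
Log2 fold change with SE (vertical axis) of the 6 genes for shLITATS1-1 against shNT (orange), shLITATS1-2 against shNT (blue) and shLITATS1-2 against shLITATS1-1 (violet), from 3 libraries a group. The violet points of SUCNR1 and CHRNA9 lie at 0.27 and 0.20, and those of PDE3A and RASGRP3 below -3.

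The likeness of 2 genes was measured as the root mean square distance of their log2 CPM over the 9 libraries, each centred on its shNT mean, among the 13222 named genes whose log2 CPM averaged 0 or more, so that genes with lower levels were not compared. Within the 6 genes, SUCNR1 and CHRNA9 were the closest pair at 0.215 log2 units, and NTSR1 and PDE3A the farthest at 3.65. The nearest other genes to SUCNR1 were PLEK2 (0.176), NT5E (0.197) and RET (0.209), and those to CHRNA9 were CLDN4 (0.106), PLEK2 (0.121) and NT5E (0.146). NT5E, the ectoenzyme that forms adenosine outside cells, averaged 63.2, 249 and 270 CPM with shNT, shLITATS1-1 and shLITATS1-2, and the receptor tyrosine kinase gene RET averaged 1.81, 7.04 and 7.53 CPM. Nearest to PDE3A were the chemokine gene CXCL5 (0.252), the matrix protein gene SPARC (0.26) and the mitochondrial adenylate kinase gene AK3 (0.44), with SPARC at 13.3, 35.0 and 3.68 CPM. Nearest to RASGRP3 were the integrin subunit gene ITGB6 (0.342), LUM (0.514) and KRT6A (0.516), with ITGB6 at 2.07, 16.6 and 3.1 CPM. PLCH2 was nearest to C5AR2 (0.391), TNC (0.432) and CD163L1 (0.478), and NTSR1 to COL13A1 (0.664), TNC (0.851) and SCG5 (0.978). TNC, the matrix protein tenascin C, was among the 3 least distant genes of both and averaged 4.03, 4.93 and 34.5 CPM. Its distance of 0.851 from NTSR1 was large beside the 0.215 between SUCNR1 and CHRNA9. These distances describe 9 libraries in 3 groups and carry no test.

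Genes beside the 6 loci moved in both directions, as did the tested genes as a whole. Of 11 tested nearest protein-coding neighbours, 6 rose and 4 fell with shLITATS1-1 (30.5% and 30.5% of all tested genes). With shLITATS1-2, 4 rose and 4 fell (27.8% and 28.9%). AADAC, a lipid-metabolising esterase gene 45.2 kb from SUCNR1, was at 14.4, 15.6 and 15.3 CPM with shNT, 32.3, 34.7 and 31.3 with shLITATS1-1 and 28.4, 27.8 and 28.0 with shLITATS1-2. It rose by 1.11 (SE 0.0651) and 0.89 (SE 0.066) on the log2 scale. MBNL1, on the other side of SUCNR1, rose by 0.39 (SE 0.0355) with shLITATS1-1 and fell by 0.35 (SE 0.0367) with shLITATS1-2. RBM47, 68.0 kb from CHRNA9, rose by 0.24 (SE 0.037) and 0.23 (SE 0.0367). RHOH, on the other side of CHRNA9, was at 0.96 (SE 0.514, not passed) with shLITATS1-1 and rose by 1.30 (SE 0.477) with shLITATS1-2. The latter call is lost with DESeq2 (1.33, adjusted p = 0.0698) and without shNT replicate 3 (0.99) or shLITATS1-2 replicate 1 (1.20). LTBP1, which encodes a latent TGF-beta binding protein 36.8 kb from RASGRP3, rose with both hairpins, by 0.81 (SE 0.0476) and 1.00 (SE 0.0463). PANK4, 3.0 kb from PLCH2, fell by 0.56 (SE 0.0731) with shLITATS1-1, and PEX10, on its other side, by 0.49 (SE 0.0793). With shLITATS1-2 PANK4 fell too (-0.195, SE 0.0685), a call lost with DESeq2 (-0.193, adjusted p = 0.051) and with library size alone. PEX10 was at -0.161 (SE 0.0745, not passed) with shLITATS1-2. SLCO4A1, 23.1 kb from NTSR1, fell by 1.00 (SE 0.0794) with shLITATS1-1. With shLITATS1-2 it fell too (-0.162, SE 0.0698), a call lost with DESeq2 (-0.16, adjusted p = 0.128) and under several other alternatives. Of 8 genes that overlap the 6 loci, 7 lie on the opposite strand and had at most 5 fragments in any library. The remaining one, the pseudogene AC112777.1, lies on the strand of PDE3A and shares no exon bases with it. It had 9 to 32 fragments per library and fell with shLITATS1-1 (-0.726, SE 0.285). Whether the counting used strand is not given in the sources used here. If it did not, fragments of the 404 exon bases shared by PDE3A and PDE3A-AS1 and of the 70 shared by RASGRP3 and AC020594.1 cannot be assigned.

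Other receptor genes of the same broad class were also measured. Of 41 tested genes for peptide, lipid and metabolite receptors, 21 rose and 8 fell with shLITATS1-1, and 17 rose and 3 fell with shLITATS1-2 (24 and 1 with library size alone). The medians were 0.28 and 0.35 on the log2 scale, and 42 more genes were below the filter. All tested genes had 30.5% risen and 30.5% fallen with shLITATS1-1, and 27.8% and 28.9% with shLITATS1-2. The same shares apply to the receptor kinase, arrestin and RGS counts below. They do not apply to the splits with library size alone, which shifted the median change of all genes upward with shLITATS1-2. LPAR5, a lysophosphatidic acid receptor, rose by 2.91 (SE 0.212) and 1.83 (SE 0.245), F2R, a thrombin receptor that couples to Gq, by 1.34 (SE 0.0404) and 1.69 (SE 0.0393), and AGTR1, the angiotensin receptor, by 1.55 (SE 0.208) and 1.26 (SE 0.214). OXTR, the oxytocin receptor, was at 14.7, 13 and 12.4 CPM with shNT, 15.6, 17.7 and 17.0 with shLITATS1-1 and 41.1, 45.3 and 43.6 with shLITATS1-2. It rose by 0.33 (SE 0.0781) and 1.70 (SE 0.0654). ADORA2B, an adenosine receptor, fell by 1.68 (SE 0.0932) with shLITATS1-1 and by 0.27 (edgeR adjusted p = 0.00154) with shLITATS1-2. The latter call is lost with library size alone (-0.16, edgeR adjusted p = 0.0666). Of 19 tested receptor kinases, arrestins and RGS genes, which switch such receptors off, 4 rose and 10 fell with shLITATS1-1, and 9 rose and 3 fell with shLITATS1-2 (10 and 0 with library size alone). RGS2, which acts on Gq, was at 9.43, 7.32 and 8.12 CPM with shNT, 27.2, 24.7 and 28.1 with shLITATS1-1 and 31.6, 28.3 and 30.1 with shLITATS1-2. It rose by 1.69 (SE 0.0809) and 1.85 (SE 0.0783). RGS22 rose by 2.55 (SE 0.451) and 1.79 (SE 0.503) from a shNT mean of 0.154 CPM, and RGS5 by 1.27 (SE 0.301) with shLITATS1-1, with -0.43 (SE 0.387, not passed) with shLITATS1-2. RGS17 rose by 0.66 (SE 0.0577) with shLITATS1-2 and fell by 0.16 (SE 0.0643) with shLITATS1-1, a call that is lost with DESeq2 (-0.15, adjusted p = 0.0869) and without shNT replicate 1 (-0.10) or shLITATS1-1 replicate 1 (-0.11). Most called genes of this list fell with shLITATS1-1, and ARRB1 and ARRB2, the arrestins that bind activated receptors, are given as examples chosen after their values were seen. ARRB1 fell by 1.16 (SE 0.106) with shLITATS1-1 and rose by 0.38 (SE 0.0838) with shLITATS1-2, and ARRB2 fell by 0.64 (SE 0.0407) and 0.14 (SE 0.0385), the latter lost with library size alone (-0.03, edgeR adjusted p = 0.586).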

How the data were processed

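RNA was sequenced from 9 A549 libraries, 3 per group, with groups and replicate numbers taken from sample titles. The authors deposited whole-number counts of fragments per gene as 1 table, unnormalized. The submitters' processing notes name STAR 2.7.5a, HTSeq 0.12.4, cutadapt 2.10 and FastQC and the build GRCh38. The strand setting and the annotation were not given in the sources used here. Lines that name no gene held 18.97 to 20.26% of fragments and were left out. Replicate pairs differed by more than sampling noise (chi-square per degree of freedom 1.47 to 2.72).

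Genes passing edgeR's filterByExpr (minimum count 10) entered 1 quasi-likelihood fit over 9 libraries (edgeR 4.0.16, TMM, 6 residual degrees of freedom), tested two-sided with Benjamini-Hochberg adjustment over all 15500 genes at 0.05; "rose" and "fell" mean past that threshold. SE is the absolute log2 fold change divided by the square root of the edgeR F statistic of that comparison. For the 6 genes it is given as a spread and not as a test. The fit was also run on simulated counts in which few genes changed. That run does not cover scaling in data where most genes were called, nor changes in genes with counts as low as those of NTSR1 and SUCNR1 with shNT. Gene names were paired through reference tables (LITATS1 through a RefSeq synonym), and loci and exon lengths came from GENCODE 29; start windows came from RefSeq GRCh38.p14. R 4.3.3, DESeq2 1.42.0, Python 3.11.15, numpy 2.4.6 and pandas 2.3.3 were also used.

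The 6 genes and all lists were chosen with earlier results of these data known. Named are the 6 genes, their families, their neighbours, up to 3 called genes of each other list with the largest absolute log2 fold change per hairpin, and the 3 genes most like each. A gene that this rule names is not reported here. In the order used in the text the lists are neurotensin, succinate, nicotinic, acetylcholine, phosphodiesterase, cyclic AMP, CREB target, phospholipase C, Gq and calcium, diacylglycerol, Ras and Rap, ERK output, other receptor, and receptor kinase, arrestin and RGS genes; the 6 genes are left out of list counts. Alternatives were DESeq2, its size factors, library size alone, other filters, a replicate block, only the libraries compared, and leaving out each library.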

Additional observations from a re-analysis of the deposited data

How the results depend on the processing

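Of 234 alternative values for the log2 fold changes of the 6 genes, 2 moved by more than the spread between replicates, and no direction turned except that of PLCH2 with shLITATS1-1, a value near 0 in which leaving out a library gave -0.33 to 0.30. With library size alone the log2 difference between the hairpins was 3.36 for NTSR1 and -3.07 for PDE3A. That scaling shifted the median log2 fold change of all genes by 0.113 with shLITATS1-2 and 0.131 between the hairpins. In these comparisons it raised the share of calls that were higher from 49.0% to 67.1% and from 50.4% to 67.7%. The list splits given with library size alone are to be set beside these shifts, not beside the shares of the main scaling. Replicate numbers did not pair the libraries (correlations of same-numbered libraries -0.0612 to 0.0355); with the replicate block 9295, 8630 and 9264 genes were called against 9449, 8787 and 9439 without it, in the order shLITATS1-1, shLITATS1-2 and between hairpins. Of 546 list counts, 10 moved by over 1.5 times, and no count over all genes did. DESeq2 called 3 nicotinic genes with shLITATS1-2 and 2 between the hairpins, and 5 phospholipase C genes between the hairpins. A minimum count of 50 left fewer genes tested, with 1, 2 and 1 nicotinic genes called in the 3 comparisons and 4 acetylcholine genes between the hairpins. Leaving out a library gave 5 to 8 phospholipase C genes (lowest without shLITATS1-1 replicate 1) and 2 to 4 nicotinic genes (lowest without shLITATS1-1 replicate 3) between the hairpins, and 3 to 5 nicotinic genes with shLITATS1-2 (lowest without shLITATS1-2 replicate 1). The causes were not tested. Depth limits 5 of the 6 genes: shNT libraries held 10 to 15 fragments of NTSR1, 15 to 33 of PLCH2, 16 to 24 of SUCNR1, 19 to 23 of RASGRP3 and 23 to 24 of CHRNA9, against 564 to 621 of PDE3A.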
